A study of Mus musculus with 16 samples.

Results

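The response of cells to transfected RNA was followed through 9 genes, of which Ifih1 and Ddx58 encode cytoplasmic RNA sensors, Irf7 encodes the transcription factor that amplifies the interferon response, and Ifit1, Ifit2, Ifit3, Isg15, Oasl2 and Rsad2 are interferon-stimulated effector genes. Members were chosen by name among the array's probes and checked through the RefSeq accession of each probe, which gave 12 probes of 60 nt. Of the 9 genes, 5 (Rsad2, Oasl2, Ifit2, Ddx58 and Isg15, each by 1 probe) had a probe that the scanner flagged as well above background on each of the 4 arrays in some condition, and were tested among 18338 genes. The other 4 (Ifit1, Ifit3, Irf7 and Ifih1) lay near background and are described by their intensities.

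P19, a line of mouse embryonal carcinoma cells, was profiled 48 h after transfection in 4 conditions, on 16 one-colour arrays with 4 per condition. The conditions were control, let-7a (a mimic of the miRNA), siSfpq (a pool of 4 siRNAs against Sfpq, a nuclear RNA-binding protein) and let-7a + siSfpq, and siRNA and mimic were used at 24 nM per the methods. The labels name the reference condition only as control, and what RNA it received on the arrays is not given in the sources used here, so that the response to transfection itself cannot be told apart from the baseline. The cells are a single cultured line, and the pooled siRNAs cannot be told apart from one another.

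RNA in the cytoplasm that looks foreign, such as double-stranded RNA or RNA with an uncapped triphosphate end, is bound by the sensors RIG-I (encoded by Ddx58) and MDA5 (encoded by Ifih1). Both signal through the mitochondrial adaptor MAVS to kinases that activate the factors IRF3 and IRF7, which switch on type I interferon genes, and secreted interferon acts through Jak-Stat signalling on a large set of interferon-stimulated genes. Pluripotent cells are known to mount a weak interferon response.

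The mature sequence of the miRNA that the mimic stands for is shown as RefSeq lists it (GRCm38.p6), with the seed (bases 2 to 8) in capitals.
mmu-let-7a-5p: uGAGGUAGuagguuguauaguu

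Interferon-stimulated genes often carry an interferon-stimulated response element in the promoter, whose core was searched as GAAANNGAAA on both strands of the 250 bases before the RefSeq start site. It was found for 4 of the 9 members, against 936 of 27025 genes (3.46%). The members were chosen as genes of the interferon response, so a higher share among them is a description only. The 4 are Rsad2, Isg15, which was well above background in every condition, and Ifit1 and Ifit3, which lay near background. Whether the matches bear on the levels was not tested. Their 160 bases before the start site are printed in the direction of the gene, with matches in capitals, where a match on the opposite strand reads as TTTCNNTTTC and the 3 matches of Isg15 overlap.
Rsad2 (chr12:26456453-26456612, minus strand, GRCm38.p6): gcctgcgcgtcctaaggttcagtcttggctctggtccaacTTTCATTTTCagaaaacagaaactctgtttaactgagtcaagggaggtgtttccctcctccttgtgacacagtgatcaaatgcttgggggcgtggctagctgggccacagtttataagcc
Isg15 (chr4:156200819-156200978, minus strand, GRCm38.p6): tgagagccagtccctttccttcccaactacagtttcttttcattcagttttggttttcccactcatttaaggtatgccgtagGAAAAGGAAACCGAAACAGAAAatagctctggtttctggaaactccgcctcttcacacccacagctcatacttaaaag
Ifit1 (chr19:34640729-34640888, plus strand, GRCm38.p6): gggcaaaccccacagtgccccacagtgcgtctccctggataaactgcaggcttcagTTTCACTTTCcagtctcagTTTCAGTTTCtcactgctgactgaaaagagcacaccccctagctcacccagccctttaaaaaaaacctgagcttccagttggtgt
Ifit3 (chr19:34583369-34583528, plus strand, GRCm38.p6): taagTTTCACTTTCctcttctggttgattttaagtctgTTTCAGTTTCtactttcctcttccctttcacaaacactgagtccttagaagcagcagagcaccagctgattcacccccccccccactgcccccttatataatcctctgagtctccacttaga
The match of Rsad2 starts 120 bases before the start site, those of Ifit1 104 and 85 bases, those of Ifit3 156 and 122 bases, and those of Isg15 78, 72 and 66 bases. Oasl2, Ifit2, Ddx58, Irf7 and Ifih1 held no match in this window.

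Between 33733 and 38464 of the 59305 spots of an array were well above background. Arrays 1 and 2 of a condition differed by a robust SD of 0.086 to 0.11 on the log2 scale, close to the 0.077 to 0.096 between spots of 1 probe on 1 array, so their mean was taken as 1 sample, and each condition had 3 samples. Replicate 3 stood apart, with a robust SD of 0.31 to 0.55 against the other arrays of its condition, where arrays 1 and 2 differed from array 4 by 0.17 to 0.23. Results that rest on replicate 3 are therefore given with and without it. Nothing in the labels says that the replicates came from separate cultures, so that p-values measure the spread between these samples, which may be technical. The Sfpq mRNA fell by 1.13 on the log2 scale with siSfpq (adjusted p = 0.00728), and by 1.52 (replicates 1 and 2), 0.52 (replicate 3) and 1.36 (replicate 4), so that replicate 3 had the smallest fall. In let-7a + siSfpq the difference of Sfpq from control was -0.61 (adjusted p = 0.182). Lin28a, a known let-7 target, fell by 0.77 with let-7a (adjusted p = 0.00252) and by 0.57 with let-7a + siSfpq (adjusted p = 0.0361). Of 10 P19 identity genes, 9 passed the filter, whereas of 10 immune cell markers 6 did, 1 of which was called in a comparison with control (Aif1, lower with siSfpq), and their median difference from control was between -0.09 and 0.02 in the 3 treated conditions. Tyrobp was not above background on any array and Ptprc on at most 4. Other cell state markers moved with the treatments, since 8 of 9 neuronal markers rose with let-7a (median 1.60) and 8 of 9 fell with siSfpq (median -1.17), 3 of 9 P19 identity genes fell with let-7a, and 2 rose and 1 fell with siSfpq. Of 8 fibroblast markers, 1 rose with let-7a and 2 each with siSfpq and let-7a + siSfpq. The part of these shifts in the changes of the members and pathway genes was not tested.

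The scanner's flag placed the members in 3 groups. Isg15 and Ddx58, each by 1 of 2 probes, were well above background on all 16 arrays, so that their levels could be compared in every condition. Oasl2 was above background on 3 of 4 control arrays, 2 of 4 let-7a arrays and all arrays of both conditions with siSfpq, Ifit2 on 2 of 4 arrays in control and in siSfpq and on all arrays of both conditions with let-7a, and Rsad2 on no control array and no siSfpq array but on all arrays of let-7a and let-7a + siSfpq. Ifit1, Ifit3, Irf7 and Ifih1 were above background on at most 4 of 16 arrays.

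**Figure D1:**
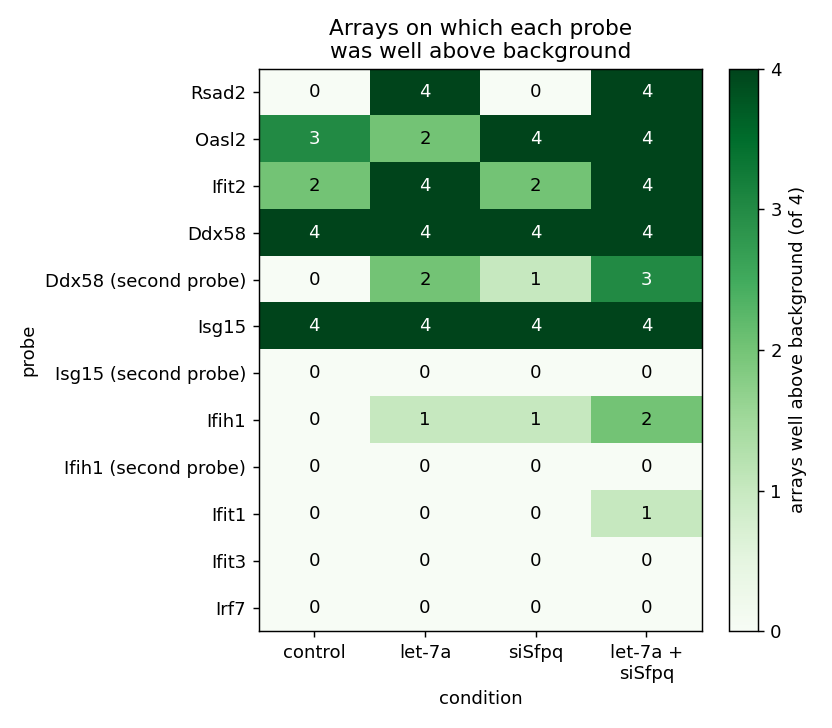
Number of arrays, of 4 per condition (columns), on which each of the 12 member probes (rows) was well above background by the scanner's flag, with darker green for more arrays. Isg15 and Ddx58 have 1 probe at 4 arrays in every condition, whereas Rsad2 goes from 0 in control and siSfpq to 4 in let-7a and let-7a + siSfpq.

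Rsad2, which encodes viperin, an antiviral enzyme, had the largest rise of the members. Its probe (chr12:27127859-27127918, mm9, minus strand) gave control intensities of 4.71, 3.38, 4.35 and 5.35 on arrays 1 to 4, let-7a intensities of 24.7, 20.5, 20.7 and 33.7, and siSfpq intensities of 14.4, 11.4, 11.8 and 6.29. With let-7a + siSfpq they were 66.4, 64.6, 44.2 and 58.4. Every array of the 3 treated conditions was thus brighter than every control array, and the arrays of let-7a + siSfpq were the brightest.

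After quantile normalization, the log2 level of Rsad2 in replicates 1 and 2, 3 and 4 was 2.02, 2.10 and 2.10 for control, 4.32, 4.38 and 4.53 for let-7a, 4.27, 3.49 and 2.82 for siSfpq, and 6.05, 5.33 and 5.85 for let-7a + siSfpq. The groups did not overlap in any of the 5 comparisons between conditions. Let-7a raised the log2 level by 2.34 (SE 0.34, adjusted p = 0.00228) and let-7a + siSfpq raised it by 3.67 (SE 0.34, adjusted p = 0.000898). Since control was not well above background, these are bounds on this scale of at least 1.56-fold and at least 3.92-fold, which hold for the quantile-normalized processed intensity and not for the other treatments of the background given further on, the dimmer group being set, on each array, to the higher of its own level and the lowest level called above background. Compared with siSfpq, let-7a + siSfpq was higher by 2.21 (SE 0.34, adjusted p = 0.00528), or at least 3.1-fold on the same scale, but the call was lost when only both groups were fitted (adjusted p = 0.0633). With siSfpq alone the log2 level was higher by 1.45 (SE 0.34, adjusted p = 0.0215), by 2.25, 1.39 and 0.72 within the replicates. Neither condition was well above background, so no fold is given. The difference was not called after another background correction, normexp with an offset of 50 (0.21, adjusted p = 0.128), or in the authors' normalized table (0.33, adjusted p = 0.147). The step from let-7a to let-7a + siSfpq was 1.33 (SE 0.34, adjusted p = 0.0612), and it passed the threshold with the replicate number as a block (adjusted p = 0.0267) and without replicate 3 (1.52, adjusted p = 0.0419). The interaction, which compares the let-7a effect in siSfpq cells with that in control cells, is not given a size for Rsad2, since control and siSfpq were both below background.

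The fitted size of the Rsad2 changes was smaller under other treatments of the background, although both calls against control held. Adding the normexp offset of 50 shrinks log2 differences of a probe this dim by construction. The smaller sizes under normexp are therefore not a result about the gene. The rise with let-7a was 0.37 after normexp (adjusted p = 0.0232) and 0.64 in the authors' normalized table (adjusted p = 0.0202), and that with let-7a + siSfpq was 0.79 (adjusted p = 0.00179) and 1.32 (adjusted p = 0.00161).

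**Figure D2:**
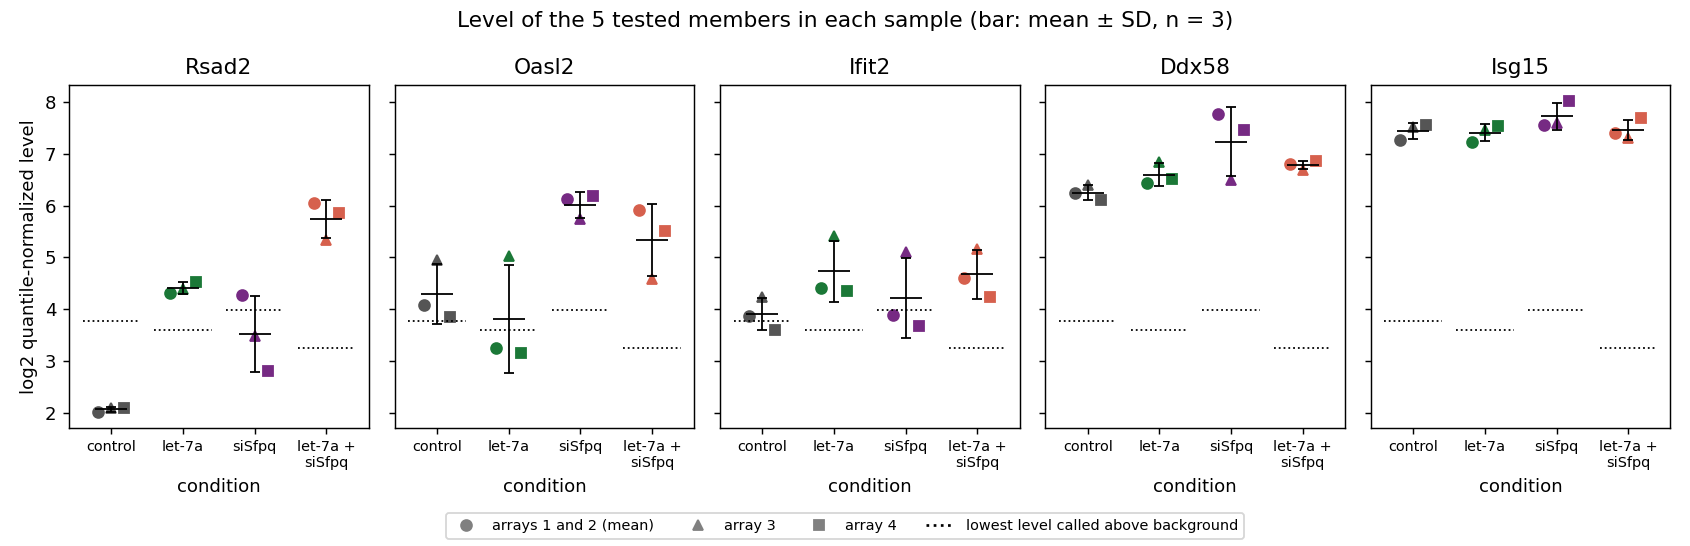
Log2 quantile-normalized level of the 5 tested members (y axis) in the 4 conditions (x axis), with 1 point per sample, the mean ± SD over 3 samples, and a dotted line per condition at the mean lowest level called above background. The 3 control samples of Rsad2 lie at 2.02 to 2.10, far under the line, and its let-7a + siSfpq samples at 5.33 to 6.05, over it.

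Oasl2, an interferon-stimulated gene of the oligoadenylate synthetase-like family, rose with siSfpq. Its probe (chr5:115362168-115362227, mm9, plus strand) gave log2 levels of 4.09, 4.94 and 3.85 in control and 6.13, 5.73 and 6.18 in siSfpq, in the order of replicates 1 and 2, 3 and 4. All siSfpq samples lay above all control samples, and the fitted difference was 1.72 (SE 0.50, adjusted p = 0.0447). No fold is given, since control replicate 4 lay under the lowest level called above background on its array (3.99). The probe passed the filter only through both conditions with siSfpq, where it was brightest. The difference was 0.66 after normexp (adjusted p = 0.0275) and 0.95 in the authors' normalized table (adjusted p = 0.0305). The call was lost when no probe was filtered out (adjusted p = 0.0913), when only both groups were fitted (adjusted p = 0.0592) and without the intensity trend (adjusted p = 0.0514). It was also lost without replicates 1 and 2 (1.56, adjusted p = 0.486) and without replicate 4 (1.41, adjusted p = 0.564). The let-7a levels were 3.26, 5.02 and 3.16, and those of let-7a + siSfpq were 5.92, 4.58 and 5.50. Replicate 3 was the highest of its condition in control and let-7a and the lowest in both conditions with siSfpq.

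The fitted difference of Oasl2 from control was -0.48 with let-7a (SE 0.50, adjusted p = 0.681) and 1.04 with let-7a + siSfpq (SE 0.50, adjusted p = 0.466). Between let-7a + siSfpq and let-7a it was 1.52 (SE 0.50, adjusted p = 0.14), with -0.44 in replicate 3 and positive values in the others. The let-7a samples of replicates 1 and 2 and of replicate 4 lay under the lowest levels called above background. Fitted differences between let-7a and another condition, and the interaction, are therefore not measured sizes. Without replicate 3, the fitted difference of Oasl2 from control was 2.18 with siSfpq (adjusted p = 0.000168) and 1.74 with let-7a + siSfpq (adjusted p = 0.00213). The differences from let-7a were called there too, lower against control (adjusted p = 0.0348) and higher in let-7a + siSfpq (adjusted p = 0.000267), but no size is given, since the remaining let-7a samples lay under the lowest levels called above background. The fitted interaction was -0.19 (95% confidence interval -1.75 to 1.37, adjusted p = 0.995).

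Ddx58, which encodes the RNA sensor RIG-I, also rose with siSfpq. By its brighter probe (chr4:40151893-40151952, mm9, minus strand), the log2 level was 6.24, 6.39 and 6.11 in control and 7.76, 6.49 and 7.45 in siSfpq. The groups did not overlap, but replicate 3 of siSfpq lay only 0.09 above replicate 3 of control, against 1.53 for replicates 1 and 2 and 1.34 for replicate 4. The difference was 0.99 (SE 0.27, adjusted p = 0.037), or 1.98-fold, and 1.43 without replicate 3 (adjusted p = 0.000137). After normexp it was 0.64 (adjusted p = 0.0438). The call was lost with 75th percentile scaling (0.90, adjusted p = 0.0565) and when only both groups were fitted (adjusted p = 0.128). It was also lost without replicates 1 and 2 (0.72, adjusted p = 0.517) and without replicate 4 (0.81, adjusted p = 0.571).

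The log2 level of Ddx58 was 6.44, 6.85 and 6.51 with let-7a, and with let-7a + siSfpq it was 6.80, 6.69 and 6.85. Both conditions lay above all control samples, but the differences of 0.35 (SE 0.27, adjusted p = 0.546) and 0.53 (SE 0.27, adjusted p = 0.508) did not pass the threshold. Without replicate 3, let-7a + siSfpq was above control by 0.65 (adjusted p = 0.017) and below siSfpq by -0.78 (adjusted p = 0.00275), and the interaction was -1.08 (adjusted p = 0.00794), against -0.80 over all samples (95% confidence interval -1.65 to 0.04, adjusted p = 0.806). The second probe of Ddx58 (chr4:40151133-40151192, mm9, minus strand) read 7.54 to 20.3 in intensity and was above background on none of the control arrays, 2 let-7a arrays, 1 siSfpq array and 3 arrays of let-7a + siSfpq. When it was averaged with the brighter probe, without a filter on dim probes, the difference with siSfpq was 0.74 (adjusted p = 0.119).

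Ifit2, which encodes an antiviral protein with tetratricopeptide repeats, had its highest levels in both conditions with let-7a. Its probe (chr19:34650244-34650303, mm9, plus strand) gave log2 levels of 3.88, 4.23 and 3.61 for control, 4.42, 5.42 and 4.36 for let-7a, 3.89, 5.10 and 3.67 for siSfpq, and 4.61, 5.16 and 4.24 for let-7a + siSfpq. Replicate 3 was the highest sample of every condition, and all let-7a samples lay above all control samples. The difference with let-7a was 0.82 (SE 0.42, adjusted p = 0.301), with 0.54, 1.18 and 0.75 within the replicates, and it passed the threshold with the replicate number as a block (adjusted p = 0.0234). With let-7a + siSfpq the difference from control was 0.76 (SE 0.42, adjusted p = 0.556, with the block 0.0584), and with siSfpq it was 0.32 (SE 0.42, adjusted p = 0.671), of which 0.87 in replicate 3 but 0.01 and 0.06 in the others.

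Isg15, which encodes a ubiquitin-like modifier, was the steadiest tested member. Its brighter probe (chr4:155573649-155573708, mm9, minus strand) gave log2 levels of 7.26, 7.50 and 7.56 for control, 7.22, 7.45 and 7.54 for let-7a, 7.54, 7.58 and 8.02 for siSfpq, and 7.39, 7.31 and 7.68 for let-7a + siSfpq. The groups overlapped in each of the 5 comparisons. The largest difference was 0.28 with siSfpq (95% confidence interval -0.11 to 0.66, adjusted p = 0.317), whereas let-7a differed from control by -0.04 (95% confidence interval -0.42 to 0.34) and let-7a + siSfpq by 0.02 (95% confidence interval -0.37 to 0.40). The second probe of Isg15 was not well above background on any array, and when it was averaged in, without a filter, the difference with siSfpq was 0.73 (adjusted p = 0.0707).

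**Figure D3:**
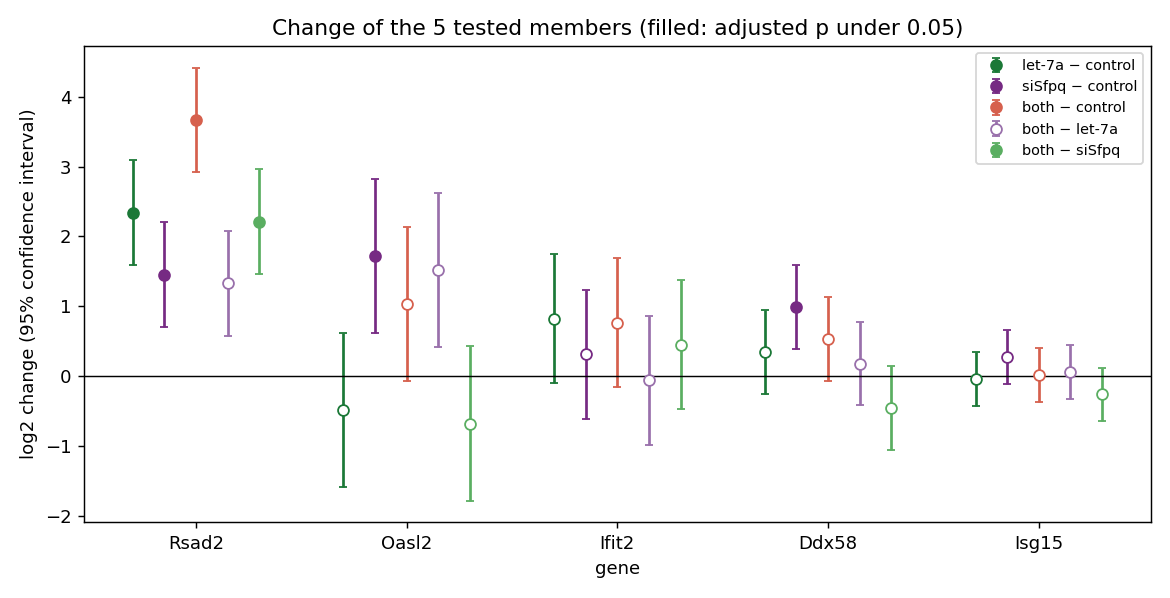
Log2 change with its 95% confidence interval (y axis) of the 5 tested members (x axis) in the 5 comparisons between conditions (colours, where both stands for let-7a + siSfpq), with filled points where the adjusted p was under 0.05. The 4 filled points of Rsad2 lie between 1.45 and 3.67, whereas all 5 intervals of Isg15 and of Ifit2 cross 0.

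The 4 members near background were not tested. On mm9 their probes lie at chr19:34723796-34723855 (Ifit1, plus strand), chr19:34663105-34663164 (Ifit3, plus strand), chr7:148450664-148451014 (Irf7, minus strand) and, for the brighter probe of Ifih1, chr2:62435507-62435566 (minus strand). Ifit1, a sensor and effector that binds RNA lacking a mature cap, had intensities of 2.32 to 4.24 in control and 2.54 to 4.51 in siSfpq, against 2.35, 6.48, 6.21 and 9.03 on the 4 let-7a arrays and 3.32, 13.4, 10.3 and 2.79 on the 4 arrays of let-7a + siSfpq. Only 1 array, of let-7a + siSfpq, was well above background, so the higher readings with let-7a are not a measured rise. With no filter on dim probes, the difference from control was 0.93 with let-7a (adjusted p = 0.267) and was not called with let-7a + siSfpq either (adjusted p = 0.398). Ifit3, which binds the Ifit1 protein, and Irf7 were not well above background on any array, with intensities of 2.27 to 4.54 and 2.39 to 6.52. The brighter of 2 probes of Ifih1, the second RNA sensor, read 4.43 to 10.6 for control, 7.74 to 16.2 for let-7a, 3.09 to 15.2 for siSfpq and 6.65 to 16.1 for let-7a + siSfpq, and was above background on 0, 1, 1 and 2 of 4 arrays. The other Ifih1 probe was at background on every array.

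**Figure D4:**
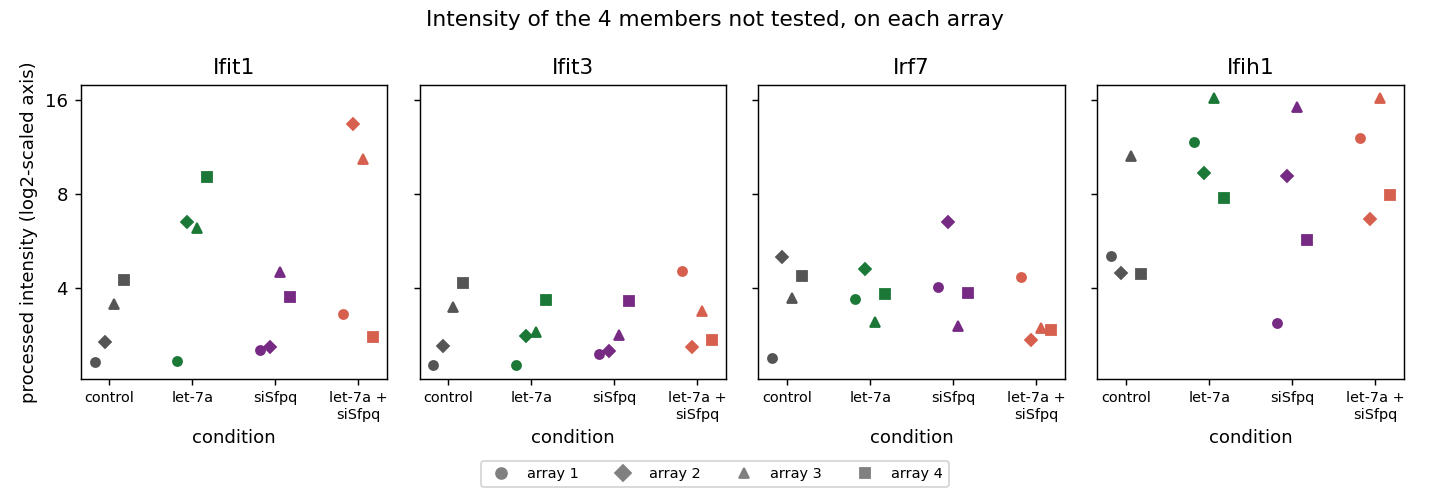
Processed intensity (y axis, spaced on a log2 scale) of the 4 untested members on each of the 16 arrays in the 4 conditions (x axis), with Ifih1 shown by its brighter probe. Ifit3 stays between 2.27 and 4.54 in every condition, whereas Ifit1 reaches 9.03 in let-7a and 13.4 in let-7a + siSfpq.

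Over the 5 tested members, let-7a raised 1 (Rsad2), where 4.91% of all genes tested rose, and siSfpq raised 2 (Oasl2 and Ddx58), where 6.31% of all genes rose. The other call with siSfpq, that of Rsad2, compares levels that were below background in both conditions and is not a measured rise. Let-7a + siSfpq raised 1 against control (Rsad2), where 1.3% of all genes rose, 1 against siSfpq (Rsad2), where 6.21% rose, and none against let-7a, where 0.954% rose. No member was called lower in these comparisons, and no interaction was called, for the members or for any gene (0%), although 1163 of 18338 genes had an unadjusted p under 0.05 there. A member passed the filter only if it was bright in some condition, so these counts stand beside the shares of all genes as a description. Rsad2 and Ifit2 passed only through both conditions with let-7a, and Oasl2 only through both with siSfpq. With the replicate number as a block, let-7a raised 2 members (Rsad2 and Ifit2), where 21.7% of all genes were called in either direction, and the step from let-7a to let-7a + siSfpq was called for 1 (Rsad2), where 13.2% were called.

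Without replicate 3, which left 2 samples per condition, 2 members were called with let-7a (30.1% of all genes in either direction), 3 with siSfpq, Rsad2 included (49.3%), 3 with let-7a + siSfpq (18.3%), 2 between let-7a + siSfpq and let-7a (26.8%), 2 between let-7a + siSfpq and siSfpq (47.2%) and 1 for the interaction (22.5%). Without replicates 1 and 2, or without replicate 4, no member was called in any comparison, and at most 3 of all genes were called. In these settings the fitted difference of Rsad2, against a control below background, was 2.36 and 2.29 with let-7a, 3.49 and 3.63 with let-7a + siSfpq, and 1.05 and 1.82 with siSfpq, and let-7a + siSfpq differed from siSfpq by 2.43 and 1.80.

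Under the 3 treatments the members did not move as 1 block. Over the 12 samples, Pearson's r between pairs of tested members ran from -0.37 (Ifit2 and Isg15) to 0.71 (Ddx58 and Oasl2), as a description, since the samples share conditions and arrays. Among all tested genes, those whose levels were most like Ddx58 were Cmtm6 (r = 0.978), Atg4b (r = 0.957) and Pdpn (r = 0.954), and those most like Isg15 were Gm10142 (r = 0.939), Gm2696 (r = 0.932) and Cox4i2 (r = 0.920), over 12 samples. None of these is in the lists of interferon pathway genes used here.

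Of 119 other genes of the pathway on the array, 82 were tested. Of the type I, II and III interferon genes, 4 of 9 were tested (Ifnk, Ifnl3, Ifna2 and Ifna5, the last of a family of near-identical genes whose probes may share signal), and 0 were called in the 3 comparisons with control by limma, although with the replicate number as a block Ifnk was lower with let-7a (-0.51, adjusted p = 0.0213) and with siSfpq (-0.42, adjusted p = 0.0292). Ifnb1, Ifna4 and Ifng were at background on all 16 arrays, as were 8 of 39 further interferon-stimulated genes, among them Mx1, Oas3, Oasl1, Cmpk2 and Ifi44. Of the inflammatory targets, 5 of 13 were tested and 0 were called in these comparisons, and Tnf, Il6, Il1b and Cxcl10 were at background on every array.

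With siSfpq, 15 of the 82 pathway genes rose and 3 fell, where 6.31% of all genes rose and 7.34% fell, and where 8 of 9 neuronal markers fell. The median change of the 82 pathway genes was 0.14, against 0.01 over all genes. When only both groups were fitted, 0 of the 82, and 0 of all 18338 genes, were called by limma. The interferon-stimulated genes made up the larger part, with 9 of 25 higher and 2 lower. Among those above background on all arrays compared, Parp9, an ADP-ribosyltransferase family member, rose by 1.39 (SE 0.20, adjusted p = 0.00546) and Ifi35 rose by 1.15 (SE 0.27, adjusted p = 0.0222). The 9 also held Gbp2, Parp14, Mx2, Dtx3l, Xaf1, Herc6 and Bst2.

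Of the other lists, siSfpq raised 1 of 11 adaptors and kinases, which was Mavs, the adaptor of the RNA sensors (0.49, SE 0.11, adjusted p = 0.0206), and 0 of 6 further sensors, among them Dhx58, Tlr7, Cgas, Zbp1 and Eif2ak2. Of 15 receptors and Jak-Stat genes it raised Ifnlr1, a subunit of the interferon lambda receptor, by 2.05 (SE 0.54, adjusted p = 0.0313) and the kinase Jak2 by 0.71 (SE 0.19, adjusted p = 0.0301), and lowered Irf9, a DNA-binding subunit of the factor that interferon activates, by -0.42 (SE 0.12, adjusted p = 0.0377). Of 9 brakes it raised Rnf125, a ubiquitin ligase that acts on RIG-I, by 1.06 (SE 0.27, adjusted p = 0.0275) and Socs3, an inhibitor of Jak signalling, by 0.72 (SE 0.20, adjusted p = 0.035). Of 7 antigen presentation genes it raised Tap2 alone. With the replicate number as a block, siSfpq raised 4 antigen presentation genes, raised 3 and lowered 3 adaptors and kinases, raised 1 and lowered 1 sensor, raised 2 and lowered 3 receptors and Jak-Stat genes, raised 4 brakes, and raised 11 and lowered 6 of the further interferon-stimulated genes, where 37.8% of all genes were called in either direction.

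Of the 15 pathway genes, 14 were higher with siSfpq in all 3 replicates (the exception was Socs3, in replicate 3), and the change was smallest in replicate 3 for all 15, with a median of 1.36 over replicates 1 and 2, 0.69 over replicate 3 and 1.24 over replicate 4. Sfpq itself fell least in that replicate, by 0.52, and the changes of all genes with siSfpq had a robust SD of 0.50, 0.23 and 0.52 in the same order. The part of the weaker knockdown in these differences was not tested. In the arm with let-7a, which shares no sample with the first, 14 of the 15 genes were also above let-7a in the combined condition, with a median of 0.44, and none was called. Of all 1158 genes that rose with siSfpq, 94.8% were higher there, with a median of 0.36, and 127 were called.

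**Figure D5:**
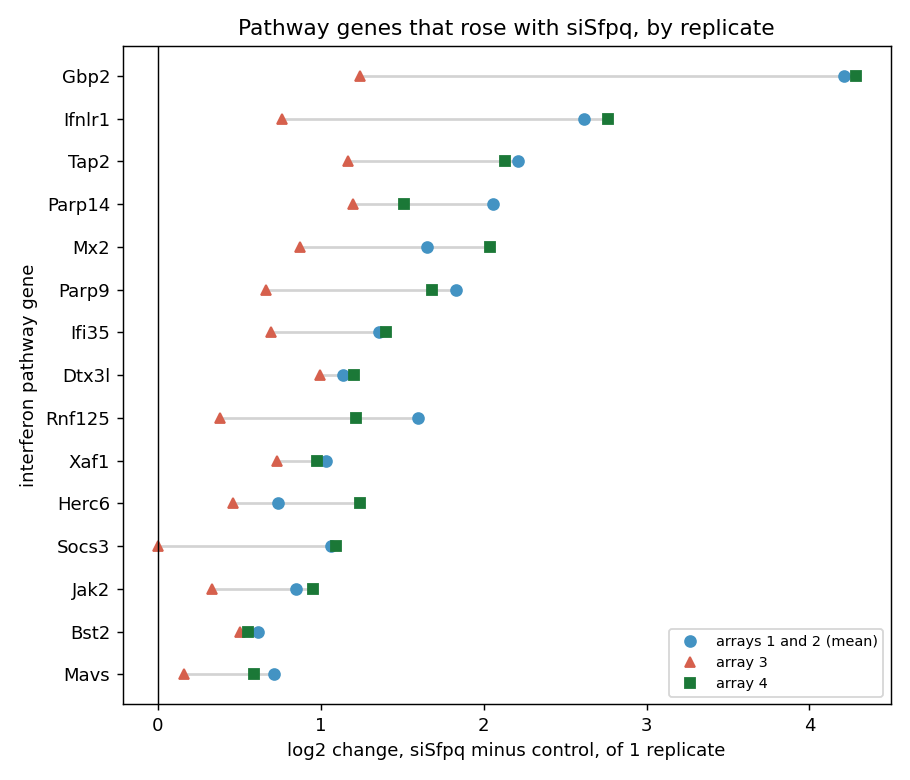
Log2 change between siSfpq and control (x axis) in replicates 1 and 2, 3 and 4 for the 15 interferon pathway genes called higher with siSfpq (y axis). The triangles of replicate 3 lie lowest for all 15 genes, with a median of 0.69.

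With let-7a, 3 of the 82 pathway genes rose and 1 fell, where 4.91% of all genes rose and 2.03% fell. Irf2, a transcription factor of the interferon regulatory factor family, rose by 1.39 (SE 0.17, adjusted p = 0.0011), and by 1.37 with let-7a + siSfpq (SE 0.17, adjusted p = 0.00375), where it was the only pathway gene called. Its log2 level was 5.49 ± 0.09 for control, 6.88 ± 0.17 for let-7a, 5.59 ± 0.21 for siSfpq and 6.86 ± 0.18 for let-7a + siSfpq (mean ± SD, n = 3), so both conditions with the mimic stood apart from both without it. Ifi27, an interferon-stimulated gene, rose by 1.57 with let-7a (SE 0.35, adjusted p = 0.0204), the kinase Jak1 rose by 0.59 (SE 0.12, adjusted p = 0.0133), and Trex1, a DNA exonuclease that limits sensing of DNA, fell by 0.31 (SE 0.08, adjusted p = 0.05, just under the threshold). With the replicate number as a block, 15 of 82 pathway genes were called with let-7a (10 higher), where 21.7% of all genes were called, 39 with siSfpq (25 higher), where 37.8% were called, and 14 with let-7a + siSfpq (13 higher), where 8.15% were called. Without replicate 3, 23 were called with let-7a (30.1% of all genes), 50 with siSfpq (49.3%) and 23 with let-7a + siSfpq (18.3%), and without replicates 1 and 2 or without replicate 4 none was called.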

How the data were processed

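Total RNA of P19 cells was measured on 16 one-colour Agilent arrays. The authors deposited scanner intensities, extracted with Agilent Feature Extraction 10.7.3.1 (design on mm9). Per the file headers, the processed intensity is background-subtracted and detrended, with surrogates for low values, and is not normalized between arrays. The deposited series-wide values, on the log2 scale and quantile normalized with limma per the methods, served as an alternative.

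The log2 processed intensity was quantile normalized with limma 3.58.1 in R 4.3.3 (with the package data.table, version 1.17.8). Spots flagged as outliers were left out, spots of 1 probe and probes of 1 gene were averaged, probes had to be well above background on all 4 arrays of 1 condition, and probes without a gene name were dropped. Arrays 1 and 2 of a condition were averaged as 1 sample. The 4 conditions (12 samples) were fitted in 1 limma model with an intensity trend, tests were two-sided, and a gene counted as called where the p adjusted over all 18338 genes (Benjamini-Hochberg) was under 0.05. The number of arrays limits the precision. Same-numbered samples of different conditions deviated together (correlations of 0.28 to 0.71 over 18 pairs), so that it was fitted as a block too. Simulated data served to test the model.

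All members are named. Pathway genes are named if called in a comparison with control and above background on every array compared, up to 3 per list and comparison. Others, including the rest of a list, are named to complete a count and were chosen after their values were seen. Some results on pathway genes are not reported here. The 3 genes most like a member were taken for members above background on all arrays. The members and lists were chosen with earlier results of these data known. Sequences are from RefSeq tables (GRCm38.p6), in which all 9 members and let-7a matched. Tables and figures were made in Python 3.11.15 with pandas 2.3.3 and matplotlib 3.10.9.

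As alternatives, the replicate or the slide was fitted as a block, replicates 1 and 2, 3 or 4 were left out, or the arrays were counted separately. The fit also used 75th percentile scaling, normexp (offset 50), the authors' values, no filter on dim probes, a stricter filter or 1 probe per gene. Further fits used no trend, the compared groups alone, or a minimum log2 change of 1.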

Additional observations from a re-analysis of the deposited data

Results flagged for a closer look

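The second probe of Ddx58, which did not pass the filter on dim probes, was well above background on 6 of the 12 arrays of the treated conditions and on 0 of 4 control arrays. The brighter probe of Ifih1, which did not pass either, was above background on 4 of the 12 treated arrays and on 0 of 4 control arrays. The probe of Ifit1 was above background on 1 of the 12 treated arrays and on 0 of 4 control arrays. These probes lie outside the tested values, and their intensities overlapped those of the control arrays. With no filter on dim probes, where the probes of a gene were averaged, none of the 3 genes was called in any comparison by limma.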

How the results depend on the processing

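The arrays are few, and replicate 3 differed from the others. Dim members carry the widest dependence on background correction, part of which follows from the normexp offset of 50. Members that did not pass a stricter filter have no value there. The interaction was not run on the compared groups alone. Slide 1 held replicates 1 and 2, whose changes stand with the members, and slide 2 held replicates 3 and 4, the setting without replicates 1 and 2; the slide as a block changed no call of a member. Over 427 values of the 5 tested members under other settings, 373 kept direction and side of the threshold, 23 lost the call, 15 gained one and 16 changed sign. Where a cause is not named, the cause was not tested.

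With the replicate number as a block, the paired fit, 2 members in place of 1 were called with let-7a and 1 in place of 0 between let-7a + siSfpq and let-7a, and the pathway genes called were 15 in place of 4 with let-7a, 39 in place of 18 with siSfpq and 14 in place of 1 with let-7a + siSfpq. The block changed no other call of a member. With the 16 arrays counted separately, the pathway counts were 15, 39 and 15, and 2 members were called between let-7a + siSfpq and let-7a. Leaving out replicates 1 and 2, 3 or 4 gave 0 to 2 members with let-7a, 0 to 3 with siSfpq, 0 to 3 with let-7a + siSfpq, 0 to 2 between let-7a + siSfpq and let-7a, 0 to 2 between let-7a + siSfpq and siSfpq, and 0 to 1 for the interaction, and 0 to 23, 0 to 50 and 0 to 23 pathway genes with let-7a, siSfpq and let-7a + siSfpq. In each case the highest count was that without replicate 3, and where replicates 1 and 2, or 4, were left out no member was called.

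When a probe had to be above background on all 16 arrays, 2 members were tested, of which 0 were called with let-7a, 1 with siSfpq, 0 with let-7a + siSfpq and 0 between let-7a + siSfpq and siSfpq, and 2 pathway genes were called with let-7a + siSfpq. With no filter, siSfpq called 1 member and 10 pathway genes. With only the groups compared, siSfpq called 0 members and 0 pathway genes, let-7a + siSfpq called 2 pathway genes, and the comparisons of let-7a + siSfpq with let-7a and with siSfpq called 1 and 0 members. The comparison with let-7a called 1 member, Rsad2, under normexp (0.42, adjusted p = 0.0201), in the authors' table (0.68, adjusted p = 0.0246) and without the trend (adjusted p = 0.0474). Let-7a + siSfpq called 3 pathway genes under normexp, 3 in the authors' table, 3 with the brightest probe and 2 with the slide as a block. With a minimum log2 change of 1, let-7a called 2 and siSfpq called 10 pathway genes.

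The values that changed sign were not called in any of these settings. For Isg15, the difference with let-7a was 0.0026 with 75th percentile scaling and 0.1981 with no filter, that with let-7a + siSfpq was -0.0042 in the authors' table and -0.0362 to 0.1235 with replicates left out, and that between let-7a + siSfpq and let-7a was -0.0541 with no filter and -0.0008 to 0.1581 with replicates left out. For Ifit2, the last difference was 0.0028 with the arrays counted separately and -0.1854 to 0.0367 with replicates left out, and the interaction was -0.6512 to 0 with replicates left out. The interaction was 0.0116 for Oasl2 with the arrays counted separately and -0.6065 to 0.3228 with replicates left out, and for Rsad2, where control and siSfpq were both below background, the fitted value was 0.2146 under normexp, 0.3499 in the authors' table and -0.4872 to 0.0764 with replicates left out.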
